A study of Microtus ochrogaster with 34 samples.

Results

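Testis transcriptomes of 18 summer males (S) were compared with those of 11 winter males that did not maintain spermatogenesis (W-), taken by their sample labels from the 34 testis libraries of the series. The animals were wild-type males of the montane water vole *Arvicola terrestris scherman* (*ATS*) caught in the field, S males in July and August and W- males in January and February. All were of reproductive age by weight and spent the time between capture and sampling under one controlled temperature and an equal light and dark cycle. One library was made per animal from one whole frozen testis, so that n counts animals. According to the study's methods, W- pooled winter males with empty seminiferous tubules and males with an intermediate histology, and the labels do not say which W- animal had which. Season, capture date and state of the testis cannot be told apart in this comparison. Whether the testis libraries held the cell types the labels imply could not be checked, since the files name genes only by Ensembl identifiers of *Microtus ochrogaster*, the prairie vole, and no source used here pairs these with gene symbols.

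Seasonal breeders stop and restart sperm production each year. In a regressed testis the seminiferous tubules shrink and the meiotic and post-meiotic germ cells, which make up most of an active testis, become scarce or disappear, while Sertoli, Leydig and other somatic cells remain. Meiotic and haploid germ cells transcribe an unusually large number of genes, many of them only there, and some sperm proteins are made from very abundant messengers.

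Abundance is given as RPKM, the reads counted on a gene per kilobase of its exons, scaled by library size, where the library size behind the deposited values was a median-of-ratios size factor. This factor sets the typical gene equal between libraries, so that every value below is a level relative to the typical gene and not an amount per cell or per testis. In whole testes, fewer cells of a type and less RNA per cell cannot be told apart. The reads themselves could be recovered from the RPKM, with totals of 5534633 to 63857259 in the S group (median 7504568) and 2938627 to 9653984 in the W- group (median 7986021). S replicates 12 to 15 were the deepest libraries. For a gene of median length (1606 bases) at median depth, 1 read amounts to 0.0926 RPKM. Of the 23038 genes, 2217 had no read in any library.

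W- replicates 1 to 4 stood apart from W- replicates 5 to 11. They had the most reads of the W- group, 9004888 to 9653984 against 2938627 to 8019103, and the shortest mean exon length per RNA molecule, 1399 to 1608 bases against 1704 to 1887 bases. Results that rest on these 4 animals are therefore given with and without them, a split that was chosen after the data were seen. Over 19185 tested genes, the rank correlation between libraries had a median of 0.974 over 153 pairs of S animals (0.955 to 0.985), 0.951 over 55 pairs of W- animals (0.915 to 0.985) and 0.758 over the 198 pairs of an S and a W- animal (0.637 to 0.813). S animals thus resembled each other slightly more than W- animals did, and the lowest value within a group lay above the highest between groups.

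The first question was which ranges of abundance were filled in an active testis and empty in a regressed one. The clearest difference lay at the top of the range. An S library held 1591 ± 76.6 genes at 100 to 1000 RPKM (SD, n = 18; lowest 1436, median 1597, highest 1700) and a W- library 795 ± 96.2 (SD, n = 11; lowest 684, median 757, highest 996), a ratio of 2.00 (two-sided permutation test, adjusted p = 7e-05). The groups did not overlap. At 1000 RPKM and more there were 33.6 ± 4.33 genes in S (24 to 43, median 33) and 11.3 ± 8.28 in W- (6 to 27, median 7), with the same adjusted p. Here the groups did overlap, because W- replicates 1, 2 and 4 held 26, 18 and 27 such genes, while W- replicate 3 held 6 and W- replicates 5 to 11 held 6 to 8. Without W- replicates 1 to 4, the mean of W- was 6.71 genes and the ratio to S was 5.00. The adjusted p-values cover 7 abundance classes, and the smallest p that 100000 resamples can give is 2e-05 before adjustment.

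On the size-factor scale, the middle of the range was slightly fuller in W-. At 10 to 100 RPKM an S library held 6636 ± 105 genes and a W- library 6803 ± 116 (adjusted p = 0.00168, permutation test), and at 1 to 10 RPKM the values were 6131 ± 104 and 6281 ± 104 (adjusted p = 0.00182, permutation test). The ranges of the groups overlapped in both classes. Scaled by total reads, the class of 1 to 10 RPKM turned round, with 6354 genes in S and 5672 in W-, and that of 10 to 100 RPKM held 6335 and 7588 (adjusted p = 3.5e-05 each, permutation test). Genes without a read were fewer in S, 4967 ± 571 against 5504 ± 394 (adjusted p = 0.0035, permutation test). This class depends on depth, and when every library was thinned to 2938627 reads the values were 6267 ± 104 and 6372 ± 104 (adjusted p = 0.0147, permutation test). Thinning left the counts at 100 to 1000 RPKM at 1590 in S and 796 in W-. The 2 lowest classes above 0 did not pass the permutation test, with adjusted p = 0.21 above 0 to 0.1 RPKM and 0.0542 at 0.1 to 1 RPKM. The latter fell below 0.05 without any of 12 of the 29 libraries left out one at a time. With thinned reads both classes passed (adjusted p = 2.8e-05 each, permutation test), with 48.7 genes in S and 190 in W- above 0 to 0.1 RPKM and 2478 and 2637 at 0.1 to 1 RPKM. At 0.1 to 1 RPKM this turned the direction, since the unthinned means were 3198 in S and 3009 in W-, so that no direction is read from these classes, where 1 read is often the whole signal. Thinned reads also kept the size-factor scale, on which 1 thinned read is worth about 1.64 times more RPKM in S. Fewer S genes can thus lie just above 0, and part of the thinned difference is built in.

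**Figure D1:**
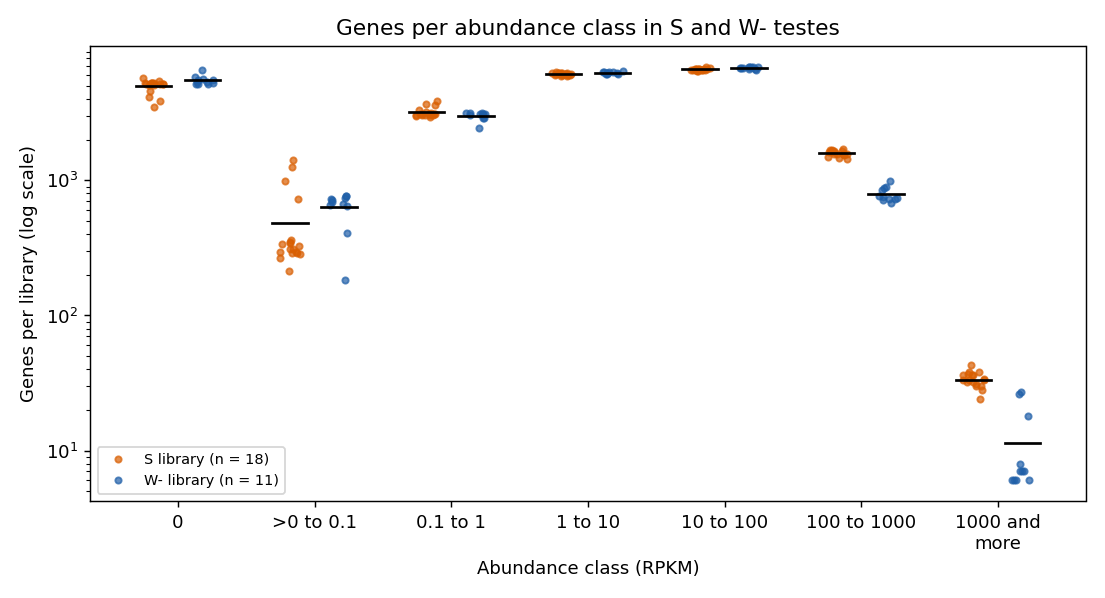
Number of genes per library (log scale) in each abundance class, in RPKM, for the 18 S libraries (orange) and the 11 W- libraries (blue), with black lines at the group means. At 100 to 1000 RPKM the S libraries lie between 1436 and 1700 genes and the W- libraries between 684 and 996, and at 1000 RPKM and more 3 W- libraries lie apart from the other W- libraries.

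The fuller upper classes also depend on the size factors. When RPKM was instead scaled by the total reads counted in each library, 1289 ± 25.3 genes in S and 1150 ± 86.8 in W- lay at 100 to 1000 RPKM, which is 1.12 times as many in S (adjusted p = 3.5e-05, permutation test), and at 1000 RPKM and more the means were 23.6 and 24.4 (adjusted p = 0.862, permutation test). The doubling is therefore a statement relative to the typical gene. At 1000 RPKM and more, the W- mean on the scale of total reads was raised by W- replicates 1 to 4, with 25 to 65 genes. W- replicates 5 to 11 held 9 to 25 (W- median 13), and S libraries 20 to 29 (median 23.5). On that scale the test was not repeated without W- replicates 1 to 4. On the size-factor scale, the level at a given rank among the tested genes was higher in S at each of 6 ranks measured. The median gene of a library was at 6.65 RPKM in S and 5.77 in W-, a ratio of 1.15, the 90th percentile at 85.8 and 49.3 (1.74), the 95th at 154 and 86.8 (1.78), and the 99th at 416 and 304 (1.37). Among the 6 ranks measured, the ratio was thus largest at the 90th and 95th percentile. Ranks above the 99th percentile were not measured. Without W- replicates 1 to 4 the 99th percentile of W- was 263 RPKM and the ratio 1.58.

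Genes were then followed from one group to the other by the class of their mean level. Of all 23038 genes, 14512 had their S and W- means in the same class, 5019 were in a higher class in S and 3507 in a lower one. Steps upwards were longer: 4137 genes moved by 1 class, 797 by 2 and 85 by 3, whereas 3477 moved down by 1 class and 30 by 2. On the scale of total reads, 3632 genes were in a higher class in S and 5745 in a lower one, so that the balance of these steps turns with the scaling.

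The upper classes of S drew mostly on genes that were already expressed in W-. The S mean of 1595 genes lay at 100 to 1000 RPKM, and of these 500 were in that class in W-, 771 at 10 to 100 RPKM, 263 at 1 to 10 RPKM and 58 at 0.1 to 1 RPKM. None came from under 0.1 RPKM, from where 22 genes reached 10 to 100 RPKM and 193 reached 1 to 10 RPKM. Most of the abundant genes of the regressed testis were also abundant in the active one. Of the 794 genes with a W- mean at 100 to 1000 RPKM, 500 stayed in the class in S, 282 lay at 10 to 100 RPKM and 2 at 1 to 10 RPKM. At 100 RPKM or more there were 1629 genes in S and 801 in W-, of which 517 were shared, 31.7% of the S list and 64.5% of the W- list. The median exon length of these genes was 1240 bases for the S list and 699 bases for the W- list, against 1606 bases over the genes with reads. At 1000 RPKM or more there were 34 genes in S and 7 in W-, with 4 shared, and the S list had a median of 56.0 RPKM in W-.

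The next question was how large the differences were gene by gene. With limma on log2(RPKM + 0.1), over the 19185 genes that reached 0.1 RPKM in at least 5 of the 34 libraries, 5515 genes were higher in S (28.7% of those tested) and 4375 were lower (22.8%), at an adjusted p under 0.05 and a log2 fold change of at least 1. Together this is 51.6% of the tested genes, 55.8% of them higher in S. Without W- replicates 1 to 4 the counts were 5468 and 4209. Scaling by quantiles gave 4325 higher and 6321 lower (40.6% higher) and scaling by total reads 3918 higher and 7394 lower (34.6% higher), as the median log2 fold change of all genes moved from 0.04 to -0.36 and -0.54. Without any assumption on spread, the lowest S animal lay above the highest W- animal for 4417 genes (23% of those tested), and the highest S animal lay below the lowest W- animal for 2891 (15.1%).

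The distribution of differences was lopsided, and the long side was that of genes higher in S. The 1st, 5th and 25th percentiles of the log2 fold change were -2.68, -1.99 and -0.93, and the 75th, 95th and 99th were 1.25, 4.31 and 7.55. The lowest and highest values were -5.68 and 11.35. The number of genes shown to be alike depended on the limit and the pseudocount. The 95% interval of the log2 fold change lay within -0.5 to 0.5 for 1731 genes, and within -1 to 1 for 5893. With a pseudocount of 1 in place of 0.1 RPKM, 4546 genes lay within -0.5 to 0.5. With the pseudocount of 0.1, genes alike within 0.5 were most common at a mean of 10 to 100 RPKM, where they were 14.7% of 7532 genes.

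**Figure D2:**
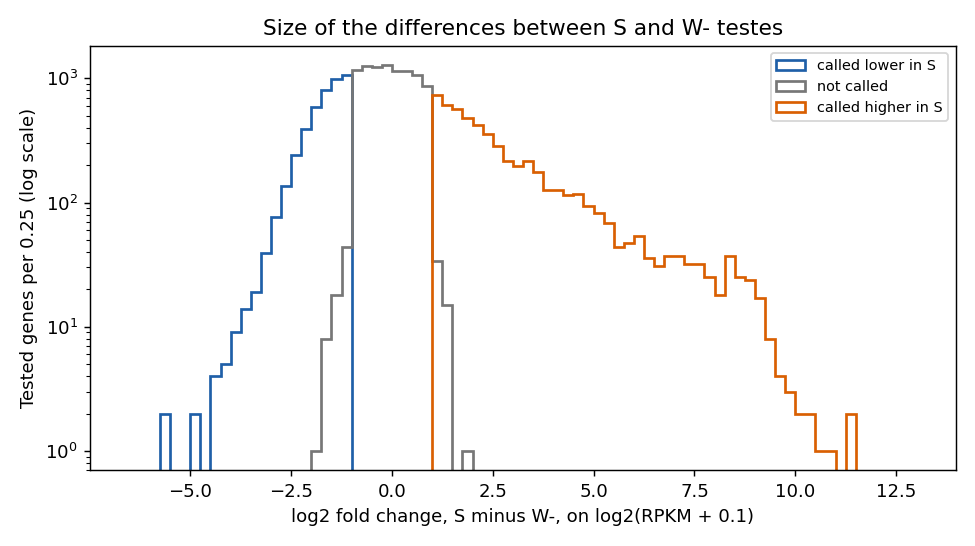
Number of tested genes (log scale) per 0.25 of log2 fold change, S minus W-, on the log2(RPKM + 0.1) scale, for genes called lower in S (blue), not called (grey) and called higher in S (orange). The orange side reaches 11.35, and the 99th percentile over all genes is 7.55, while the blue side ends at -5.68, and the 1st percentile is -2.68.

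On the size-factor scale, the direction of the calls changed with abundance. At a mean over both groups of 1 to 10 RPKM, 33.7% of 6158 genes were lower in S and 22.9% were higher. At 10 to 100 RPKM the order was turned, with 18.9% of 7532 genes lower and 33.5% higher, and at 100 to 1000 RPKM 15.5% of 1203 genes were lower and 47.8% higher. The shares per class were not computed with other scalings, so the level at which the order turns holds for this scale only. Over all called genes, the share higher in S was 55.8% here, 40.6% with quantiles and 34.6% with total reads. Of the 12 genes at 1000 RPKM or more, 9 were higher and 0 were lower in the limma test, and their median exon length was 491 bases. The share of genes more than 8-fold higher in S grew along the same classes, from 2.54% at 0.1 to 1 RPKM to 8.12%, 12.5% and 24.4%, the first of these being held down by the pseudocount of 0.1 RPKM. For such genes the mean over both groups is mostly the S level. A large gain itself lifts a gene to a higher class, so this growth may be partly built in. Genes more than 8-fold higher in S made up 10.7%, 11.8%, 8.98% and 6.74% of the genes in 4 equal groups of exon length from shortest to longest, and genes alike within 0.5 were 5.08%, 8.31%, 10.7% and 12.0%.

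The called genes were sorted by their group means into switch-like genes (under 0.5 RPKM in one group and at least 5 RPKM in the other), low-level genes (under 0.5 RPKM in one group and under 5 RPKM in the other), and graded genes that were at 0.5 RPKM or more in both groups, called steep when they differed at least 8-fold. These kinds are cut from the same values they describe, so their levels are given without a test. Graded differences prevailed in both directions. Of the genes higher in S, 2667 were graded, 1263 steep graded, 1260 low-level and 325 switch-like. Of the genes lower in S, 3485 were graded, 818 low-level, 63 steep graded and 9 switch-like. On the size-factor scale, large differences therefore went almost wholly one way, with 1588 steep or switch-like genes higher and 72 lower in S. Scaling by total reads raised the switch-like genes lower in S from 9 to 32 and cut those higher in S from 325 to 220. Steep graded genes were not counted with that scaling.

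Graded genes were moderately expressed in both groups. Those higher in S had a median of 34.0 RPKM in S and 10.4 in W- (median log2 fold change 1.69, quartiles 1.32 and 2.18), and those lower in S had 4.04 and 12.9 RPKM (median -1.53, quartiles -1.88 and -1.25). The groups did not overlap for 77.4% of the former and 65.5% of the latter. Over all tested genes, every S animal lay above every W- animal for 23% and below for 15.1%. Genes entered these kinds by the size of their difference in the same animals, so little overlap is built in, most of all for steep and switch-like genes. Steep graded genes higher in S were among the abundant genes of the active testis, with a median of 88.3 RPKM in S and 2.90 in W- (median log2 fold change 4.35). All but 17 of these 1263 genes had every S animal above every W- animal. Switch-like genes higher in S were less abundant, with a median of 16.3 RPKM in S against 0.261 in W- (median 6.09), and 95.7% did not overlap. They were also the shortest kind, with a median exon length of 1215 bases against 1530 for steep graded and 1983 for graded genes higher in S.

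**Figure D3:**
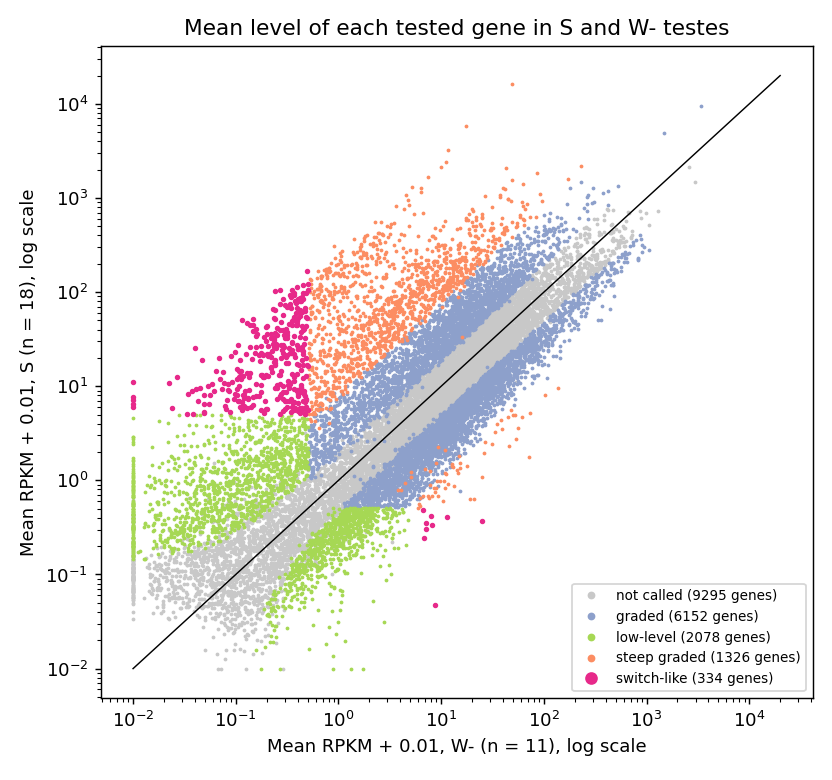
Mean RPKM of each of the 19185 tested genes in W- (horizontal, n = 11) and S (vertical, n = 18), both on log scales after adding 0.01, coloured by kind of change, with the line of equal means. Steep graded (1326) and switch-like genes (334) of both directions lie mostly above the line, and the few below it, 63 and 9, lie near the bulk of the genes.

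Whether a gene counts as switched off depends on W- replicates 1 to 4. Of the 325 switch-like genes higher in S, between 98.5% and 100% were at 0.5 RPKM or more in an S library. In W- replicates 5 to 11 it was 4.62% to 8.92% of them, and in W- replicates 1 to 4 it was 18.2% to 47.7%. The order held at equal depth. Thinned to 2938627 reads, 5.23% to 9.54% of these genes reached 0.5 RPKM in W- replicates 5 to 11 and 19.4% to 44.6% in W- replicates 1 to 4, and 56.6% to 65.8% against 21.8% to 36.3% had no read. Without W- replicates 1 to 4, 523 genes were switch-like higher in S, of which 313 were among the 325 and 210 had been steep graded, and 1109 genes were steep graded.

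A rule that asks every animal to comply was far stricter. At least 5 RPKM in each S animal and under 0.5 RPKM in each W- animal was met by 38 genes, and by 271 without W- replicates 1 to 4. The reverse was met by 0 genes. Reads in every S animal and none in any W- animal were found for 13 genes, and for 84 without W- replicates 1 to 4, while 0 genes had reads in every W- animal and none in any S animal. A gene without a read may still be expressed below what the depth can show, or its reads may not align to the prairie vole genome, that of another species. How far this occurred was not tested. By the definition on group means, called by limma, 9 genes were switch-like lower in S.

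The level of each kind was also summed per library and set against its S mean. Graded genes higher in S together reached 25.2% to 31.5% of their S mean in W- animals, against 85.6% to 109.5% among S animals. For steep graded genes it was 2.85% to 5.11% in W- replicates 5 to 11 and 5.25% to 7.52% in W- replicates 1 to 4, with 83.6% to 112.7% in S. For switch-like genes it was 0.582% to 0.806% and 1.22% to 2.46%, with 74.4% to 114.5% in S. W- replicates 1 to 4 were thus above the other W- animals for the steep and switch-like kinds but lay inside their range for the graded kind, and all stayed far below the lowest S animal.

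**Figure D4:**
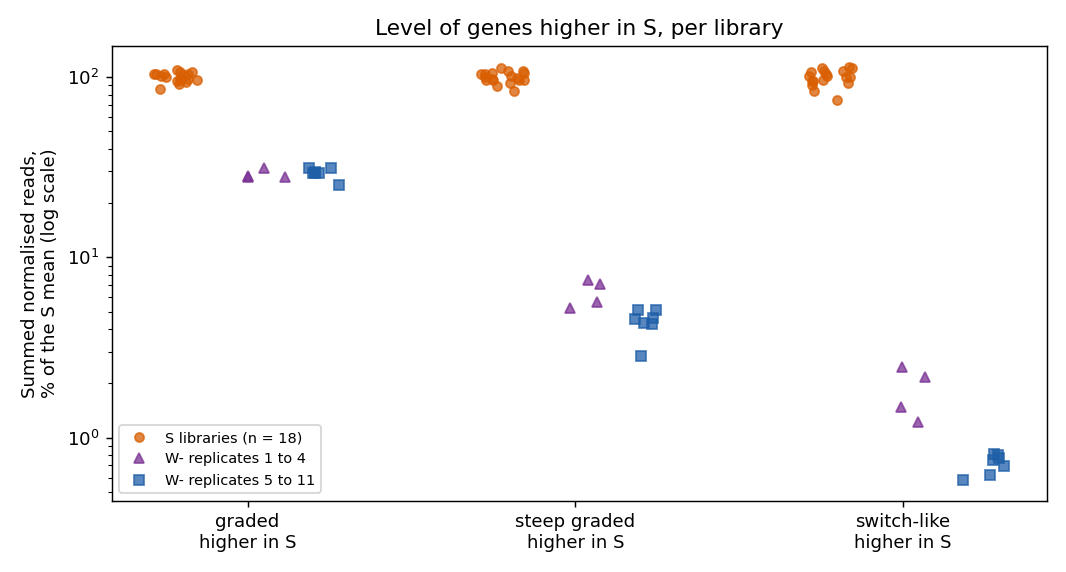
Summed normalised reads of the graded, steep graded and switch-like genes higher in S, as a percentage of the S mean (log scale), with 1 point per library: S (circles), W- replicates 1 to 4 (triangles) and W- replicates 5 to 11 (squares). The W- points lie at 25.2% to 31.5% for graded, 2.85% to 7.52% for steep graded and 0.582% to 2.46% for switch-like genes, and the triangles lie above the squares for the last 2 kinds.

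The spread among animals differed between kinds in the same way. Steep graded genes higher in S had a median SD on the log2(RPKM + 0.1) scale of 0.244 among S animals and 0.842 among W- animals, a median ratio of 3.19, and switch-like genes 0.373 and 0.994 (2.39). For graded genes the ratio was 1.59 when higher in S and 1.17 when lower. Steep graded and switch-like genes had medians of 2.90 and 0.261 RPKM in W-, levels at which single reads weigh more than in S. How much of their W- spread is counting error was not tested. The ratios per kind were not recomputed without W- replicates 1 to 4. Over all tested genes, 22.5% had a W- SD more than 2 times that of S and 5.41% the reverse. Without W- replicates 1 to 4 these shares were 13.2% and 11.7% and the median ratio fell from 1.30 to 1.02, so that the wider spread of the W- group rests on these 4 animals.

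The last question was which genes carried the larger total of RNA per typical gene in summer. Normalised reads, the reads of a library divided by its size factor, summed to 10118457 ± 370828 in S (SD, n = 18; 9364136 to 10712121) and to 6179970 ± 243345 in W- (SD, n = 11; 5913150 to 6727623). The ratio was 1.64 (permutation test, p = 2e-05, the smallest that the resamples can give), and the lowest S library lay above the highest W- library. S libraries were also more concentrated on their leading genes. The 100 most counted genes of a library took 14.2% ± 0.267 of the reads in S and 11.2% ± 0.523 in W- (permutation test, p = 2e-05), and the 1000 most counted took 49.0% and 42.3%. The effective number of genes, the number of equally counted genes that would give the same Shannon entropy, was 4970 ± 114 in S and 6084 ± 160 in W-.

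Gains and losses were spread over many genes. Relative to W-, 10812 genes gained 5648871 normalised reads in S and 9957 genes lost 1710383, a net difference of 3938488. No small set carried it: 517 genes made up 50% of the gain and 2628 made up 90%, and the 10, 100 and 1000 largest gains were 4.64%, 20.9% and 66.7% of it. In reads, the loss was spread more widely, with 656 genes for 50% and 3317 for 90%. In RPKM, where long genes weigh less, the 2 were closer at 50%, with 406 genes for the gain and 416 for the loss. For 90% it was 2571 and 3031 genes, and the 10 largest gains were 11.4% of the gain. When the genes with the largest gains were removed, the ratio of S to W- over the remaining genes was 1.46 without 100 genes, 1.20 without 500, 1.03 without 1000 and 0.83 without 2000. The genes were ranked by these same differences, so the ratio had to fall as they were removed. Without the 1000 largest gains the totals of S and W- were nearly equal. Of these 1000 genes, 960 were called higher in S, 484 of them steep graded and 8 switch-like. Over all tested genes, 28.7% were called higher in S, 6.58% were steep graded higher and 1.69% switch-like higher. The ranking favours called genes by construction, so no trait is read from these counts.

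By abundance, the largest shares of the gain came from genes at 100 to 1000 RPKM in S and, by W- level, at 10 to 100 RPKM. Genes with an S mean of 100 to 1000 RPKM (1595 genes) took 57.0% of the gain, those at 10 to 100 RPKM 33.5% and the 34 genes at 1000 RPKM or more 7.53%. Sorted by their W- mean, genes at 10 to 100 RPKM gave 58.2% of the gain, those at 1 to 10 RPKM 27.0%, those at 100 to 1000 RPKM 8.98%, those at 0.1 to 1 RPKM 5.12% and those under 0.1 RPKM 0.264%. Genes that were silent or nearly so by their mean over all W- animals thus added little. Genes at 10 to 100 RPKM in W- also held 63.7% of the W- reads and gave 58.1% of the loss. Their share of the gain was thus not out of proportion. Those at 1 to 10 RPKM held 9.29% of the W- reads and gave 9.03% of the loss, so their 27.0% of the gain was.

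By kind, 1263 steep graded genes gave 45.2% of the gain and 2667 graded genes 42.8%, while 325 switch-like genes gave 1.84% and 1260 low-level genes 0.441%. The rest came mainly from genes that were not called (9.75%). Of the loss, 65.5% came from graded genes lower in S and 32.3% from genes that were not called, which balanced to -0.0348% of the net difference. Shares of a library do not use the size factors, but the sorting of genes into kinds does, and it came from these same libraries. By share, steep graded genes higher in S took 26.6% ± 1.06 of the reads in S and 2.23% ± 0.538 in W-. Graded genes higher in S took 33.7% ± 0.990 and 16.2% ± 1.18, and switch-like genes higher in S 1.04% ± 0.0829 and 0.0189% ± 0.0103. Graded genes lower in S took 5.69% ± 0.768 in S and 27.4% ± 1.99 in W-, and the genes that were not called 32.7% and 53.5%.

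**Figure D5:**
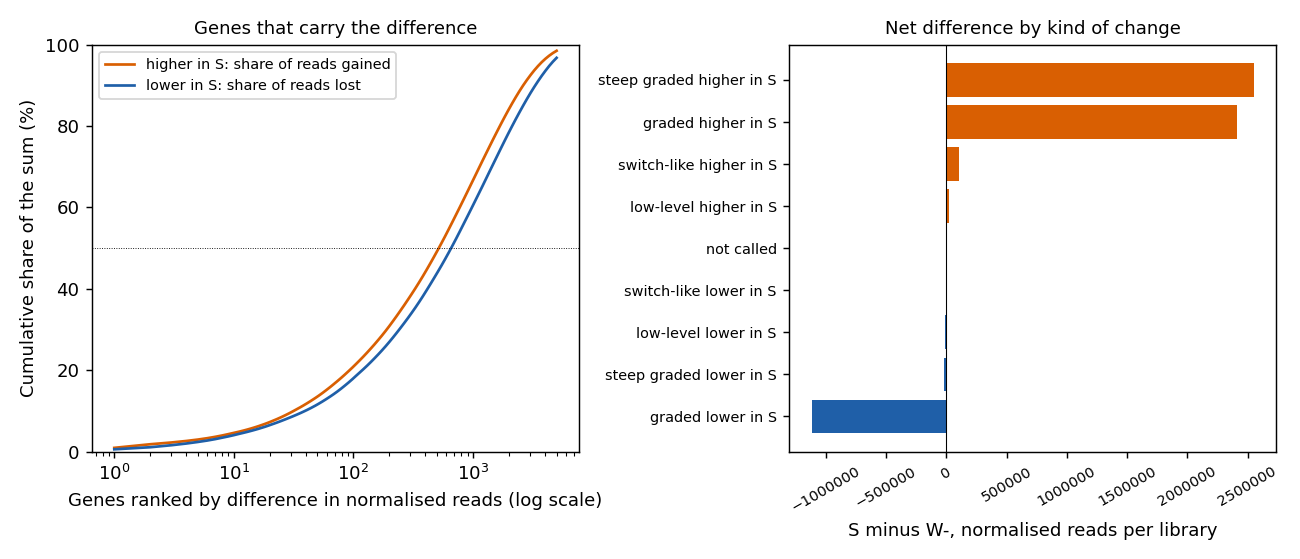
Left, cumulative share (%) of the normalised reads gained (orange) and lost (blue) in S against the number of genes, ranked by their difference (log scale), with a dotted line at 50%, which 517 and 656 genes reach. Right, net difference S minus W- in normalised reads per library for each kind of change, where steep graded and graded genes higher in S make the 2 long bars to the right and graded genes lower in S the long bar to the left.

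Among the called genes, the 2 with the largest gains and the 2 with the largest losses show these patterns. ENSMOCG00000021303, with 394 bases of exon, had 12985, 15548 and 21702 RPKM as the lowest, median and highest values in S, and 0.221, 6.25 and 307 in W-. Its mean was 16281 ± 2383 RPKM in S and 48.8 ± 94.0 in W-, the log2 fold change was 11.25 (SE 0.70, limma adjusted p = 8.02e-17), and it alone made 0.958% of the gain. In W- its level ran from 1 to 1409 reads, with 9.43 to 307 RPKM in W- replicates 1 to 4 and 0.221 to 6.81 in W- replicates 5 to 11, and without the former the log2 fold change was 13.24. A gene at the top of the summer range was thus near its floor in some regressed testes.

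ENSMOCG00000014613, with 3907 bases of exon, had 1349, 1566 and 1772 RPKM as lowest, median and highest values in S and 20.6, 39.4 and 82.5 in W-. Its log2 fold change was 5.11 (SE 0.15, limma adjusted p = 2.85e-26) and it made 0.886% of the gain. Among W- animals, replicates 1 to 4 lay at 58.6 to 82.5 RPKM and replicates 5 to 11 at 20.6 to 39.5, and the groups S and W- did not overlap.

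The 2 largest losses among the called genes were graded, and a larger single loss belonged to a gene that was not called. ENSMOCG00000014457, with 1752 bases of exon, had 185, 323 and 433 RPKM as lowest, median and highest values in S and 537, 751 and 2145 in W- (log2 fold change -1.40, SE 0.16, limma adjusted p = 4.84e-10). It stayed abundant in both groups and made 0.512% of the loss, with W- replicates 1 to 4 at 830 to 2145 RPKM and W- replicates 5 to 11 at 537 to 892. ENSMOCG00000002847, with 2825 bases of exon, had 84.8, 118 and 143 RPKM in S and 340, 436 and 781 in W- (log2 fold change -1.96, SE 0.12, limma adjusted p = 2.97e-17) and made 0.490% of the loss. For both genes every W- animal lay above every S animal.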

How the data were processed

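RNA of 1 testis per animal was sequenced as single-end libraries of poly(A) RNA. According to the study's methods and the submitters' processing notes, reads were trimmed (Trim Galore 0.6.10), checked (FastQC 0.12.1), aligned to the prairie vole assembly MicOch1 (HISAT2) and counted on genes (HTSeq), and the authors computed the deposited RPKM during DESeq2 normalization. Not given in the sources used here were which annotation release was used, whether strand was respected and how multi-mapping reads were treated, so overlapping, antisense and near-identical genes are uncertain. Reads of *ATS* were aligned to the genome of another species, which may lower the level of some genes. This bears on levels compared between genes and was not tested.

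The deposited RPKM were used as they are. For 20821 genes above 0, all values were whole multiples of 1 read (tolerance 0.02), and the recovered reads gave exon lengths, normalised reads and library totals. Genes were tested with limma 3.58.1 in R 4.3.3 (eBayes with trend) on log2(RPKM + 0.1), all 34 libraries including 5 winter males with spermatogenesis in one fit, after a filter of 0.1 RPKM in 5 libraries. Fold changes on this scale understate the change of low genes. Measures per library were compared with two-sided permutation tests (scipy 1.17.1, 100000 resamples), and adjusted p-values are Benjamini-Hochberg. The 13 measures of totals, concentration and percentiles formed a family with adjusted p of at most 0.000173, apart from the mean exon length per RNA molecule (0.243). Read recovery and the limma fit were tested on simulated data. Within groups, the counts of the most alike pair of libraries differed 2.16-fold (S) and 2.31-fold (W-) more than counting error (mean chi-square per gene), so each library counted as 1 sample. The labels give 1 animal per library, and p-values rest on the spread between animals. In limma this was a single spread per gene over all groups. Steep graded genes higher in S had a median ratio of W- to S SD of 3.19. For such genes the SE understates the W- spread, and SE and adjusted p are approximate. With weights per group, 5457 genes were higher and 4342 lower.

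Groups, gene classes and lists were chosen with earlier results of these data known. The rule for named genes took the 2 called genes with the largest gain and the 2 with the largest loss of normalised reads. The planned gene lists and cell type markers were not run, since no source used here pairs identifiers with symbols. Alternatives covered pseudocount, filter, scaling, model, thresholds, depth, a replicate block and each library left out.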

Additional observations from a re-analysis of the deposited data

How the results depend on the processing

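Of 682 values recomputed under 53 alternatives, 647 kept their direction and their side of the threshold or, for counts, stayed within 1.5 times. Of the alternatives, 29 left out 1 library each, a small change. The limit of 1.5 times also passed 4325 genes higher and 6321 lower with quantile scaling, and 3918 higher with total reads. There the balance of calls turned, from 55.8% higher in S to 40.6% and 34.6%. Leaving out W- replicates 1 to 4 or S replicates 12 to 15, and scaling the class steps and the genes alike by total reads, were added after seeing the data. Genes lower in S numbered 7394 with scaling by total reads and 7395 with no fold threshold, and an adjusted p under 0.01 with a log2 fold change of at least 2 left 3105 higher and 931 lower. Switch-like genes lower in S were 14 with quantile scaling, 32 with scaling by total reads, 16 with limits of 0.2 and 2 RPKM and 0 when every library had to comply, where those higher in S were 38. By the rule on group means, 523 genes were switch-like higher in S without W- replicates 1 to 4, against 325 with them, and the share of genes with a wider W- spread was 13.2%. Genes alike were 5893 within -1 to 1 and 4546 with a pseudocount of 1, and total reads put 5745 genes in a lower class in S. The cause of these shifts was not tested beyond the construction of each alternative.

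The difference in genes per library, S minus W-, turned in the low classes. Above 0 to 0.1 RPKM it was -141.5 with thinned reads (adjusted p = 2.8e-05, permutation test), 216.6 with total reads (0.0951) and -329.3 without S replicates 12 to 15 (9.33e-05). At 0.1 to 1 RPKM it was -159.2 with thinned reads (2.8e-05) and 753.8 with total reads (3.5e-05), and 134.0 to 203.8 with one library left out, with an adjusted p under 0.05 (permutation test) without W- replicate 1, 3, 6, 7 or 10 or S replicate 3, 4, 5, 10, 11, 16 or 18. Total reads gave 682.0 at 1 to 10 RPKM and -0.75 at 1000 RPKM and more. In the latter class, W- replicates 1 to 4 held 25 to 65 genes and W- replicates 5 to 11 held 9 to 25. With one library left out, genes higher in S ranged from 5467 to 5561, genes lower from 4333 to 4434, switch-like genes higher from 315 to 386 and the ratio of normalised reads from 1.63 to 1.65.

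S and W- share replicate numbers in the labels, but same-numbered animals did not deviate together (correlation -0.05 to 0.10 over 11 pairs, 0 above 0.1, and 1 of 11 S animals correlated best with its own number). The samples share only a number, and a fit with the replicate number as a block called 5522 genes higher and 4440 lower. Depth limits genes under about 0.1 RPKM, where 1 read decides the class.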
